A study of Homo sapiens with 12 samples.

Results

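The 35 genes described here encode plasma proteins of blood coagulation, its inhibitors, fibrinolysis and complement that the liver secretes. They were chosen by name, with the fibrinogen genes left out, and all 35 were matched by symbol among the 47634 Ensembl gene IDs of the count files, of which 24210 had a count in any library. A filter on low counts kept 27 of the 35 for testing. The cells were HepG2, a human line from a hepatocellular carcinoma that keeps many functions of hepatocytes. HepG2 cells with ATP7B knocked out (KO) and wild type (WT) HepG2 cells were each given copper for 24 h or left untreated. ATP7B encodes the ATPase that exports copper from hepatocytes and is mutated in Wilson disease. The 4 groups, KO copper, KO untreated, WT copper and WT untreated, hold 3 libraries each, which the labels call biological replicates. The labels name 1 KO line, without its clone or the edited position, and give no copper dose. The loss of ATP7B and other differences between the lines therefore cannot be told apart. A KO effect here means the difference between the lines.

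In coagulation, serine proteases circulate as inactive precursors and cut each other in a cascade that ends in thrombin, which cuts fibrinogen. Serpins and the protein C system restrain the cascade, and plasmin dissolves the clot. Complement is another protease cascade in plasma, started by C1, by lectins or by C3 itself, that tags targets with C3 fragments and assembles a pore from C5 and later components. Hepatocytes are the main source of most of these proteins.

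Promoters are shown for 4 members. F7, which fell with copper in KO cells, and F10, which fell with copper in both lines, lie near each other on chromosome 13. C4BPA, which was higher in KO untreated cells, and CPB2, which fell with copper in both lines, hold a match to a searched motif close to the start. Each sequence is the stretch of up to 250 bases before the gene start in RefSeq's GRCh38.p14 promoters, without bases that GENCODE v29 places in an exon of the gene, 5′ to 3′ on the gene's strand. Capitals mark a motif match. The windows are chr13:113105541-113105787 on the plus strand for F7, chr13:113122549-113122798 on the plus strand for F10, chr1:207103983-207104232 on the plus strand for C4BPA and chr13:46105034-46105283 on the minus strand for CPB2.
F7: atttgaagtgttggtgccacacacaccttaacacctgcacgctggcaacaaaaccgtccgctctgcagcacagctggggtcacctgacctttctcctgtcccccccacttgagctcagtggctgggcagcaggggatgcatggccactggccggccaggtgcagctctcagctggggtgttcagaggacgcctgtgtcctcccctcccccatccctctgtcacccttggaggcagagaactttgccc
F10: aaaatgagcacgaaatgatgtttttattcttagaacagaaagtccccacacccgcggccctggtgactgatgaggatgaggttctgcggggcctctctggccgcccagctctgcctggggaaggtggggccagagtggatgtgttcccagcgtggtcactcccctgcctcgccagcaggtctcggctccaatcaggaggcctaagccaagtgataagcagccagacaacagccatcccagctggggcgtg
C4BPA: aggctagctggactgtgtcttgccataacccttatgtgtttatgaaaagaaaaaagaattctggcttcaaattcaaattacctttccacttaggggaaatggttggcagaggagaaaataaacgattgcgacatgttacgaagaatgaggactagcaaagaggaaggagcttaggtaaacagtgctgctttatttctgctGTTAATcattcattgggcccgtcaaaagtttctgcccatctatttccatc
CPB2: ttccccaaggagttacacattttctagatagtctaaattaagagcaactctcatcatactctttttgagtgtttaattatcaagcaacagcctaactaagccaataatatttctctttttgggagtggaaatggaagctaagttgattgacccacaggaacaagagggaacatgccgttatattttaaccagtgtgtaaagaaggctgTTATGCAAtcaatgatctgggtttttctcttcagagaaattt
The searched motifs were GTTAAT for HNF1, CAAAGTCCA for HNF4 and TTGCNNAA for C/EBP, which are liver transcription factors, as exact matches on both strands in the 250 bases before the start. No matches overlap in the windows shown. GTTAAT lies 50 to 45 bases before the C4BPA start, and the C/EBP match 42 to 35 bases before the CPB2 start reads TTATGCAA. F7 and F10 hold none of these letters in the windows shown. RefSeq's table matched 29 of the 35 members, with 36 promoters. GTTAAT was present in 10 of these 36 promoters (27.8%) and in 6.23% of all 35116 promoters of the table. The C/EBP motif was present in 8 (22.2%) and in 9.05% of all promoters. CAAAGTCCA was present in 1, that of PROZ (2.78%), and in 0.325% of all promoters. A match is a description of letters, not of a bound site.

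Levels are given as CPM, a gene's count scaled to a common library total. Totals were 2388597 to 2807634 counts in KO copper, 976658 to 3277087 in KO untreated, 1873703 to 2581954 in WT copper and 3561723 to 3829151 in WT untreated libraries. On the first principal component of all tested genes (43.2% of the variance), KO untreated replicates 1 and 2 lay at 118 and 130 and WT copper replicate 1 at 24.7, with the other 9 libraries below 0. These 3 libraries stood apart from the rest. Without them KO untreated holds replicate 3 alone, and WT copper holds replicates 2 and 3. In that fit a comparison with KO untreated rests on 1 library of that group, whose spread is not measured. Only effect sizes are given for such comparisons, apart from tallies and ranges over all alternatives. Counts of members called without these libraries are given for the other comparisons. For single genes, only some of the results that turn on these libraries are given both ways. All 10 hepatocyte markers were detected, whereas the endothelial markers KDR and STAB2 and the T cell marker CD3E had 0 counts. The summed endothelial markers reached at most 10.2 CPM in a library. The 5 leukocyte markers, mainly LYZ, summed to 186 to 225 CPM in KO copper, 209 to 428 in KO untreated, 288 to 845 in WT copper and 1348 to 1469 in WT untreated libraries, and the 5 stellate cell markers to 24.3 to 106 CPM over all libraries. The part of these lists in the results was not tested. ATP7B was at 3.92 to 6.77 CPM in KO copper, 2.05 to 11.6 in KO untreated, 3.87 to 5.34 in WT copper and 12.4 to 13.1 in WT untreated libraries. Reads from the 3′ end of the transcript do not check an edit elsewhere in the gene.

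The members together took 0.122% ± 0.0058 of all counts in KO copper, 0.253% ± 0.0091 in KO untreated, 0.163% ± 0.012 in WT copper and 0.282% ± 0.0012 in WT untreated libraries (SD, n = 3 each). The copper libraries of each line all lay below its untreated libraries. In bulk samples, fewer cells that make a protein and less RNA per cell cannot be told apart. The 10 hepatocyte markers summed to 6509 to 6540 CPM in KO copper, 10526 to 15424 in KO untreated, 13641 to 14358 in WT copper and 28225 to 28494 in WT untreated libraries, and their part in the members' changes was not tested. By role, the fibrinolysis genes with VTN summed to 57.7 ± 9.65 CPM in KO copper and 285 ± 33.4 CPM in KO untreated libraries, and to 108 ± 16 CPM in WT copper and 312 ± 15.1 CPM in WT untreated libraries. The anticoagulants summed to 164 ± 15.1 CPM in KO copper and 772 ± 295 CPM in KO untreated libraries, of which replicate 3, the one that did not stand apart, was at 436 CPM. In WT they summed to 386 ± 84.7 CPM in copper and 699 ± 16.4 CPM untreated. The complement activation genes summed to 478 ± 44.4 CPM in KO copper and 703 ± 7.14 CPM in KO untreated libraries, and to 564 ± 125 CPM in WT copper and 686 ± 27.7 CPM in WT untreated libraries. The procoagulant factors summed to 313 ± 28 CPM in KO copper and 382 ± 197 CPM in KO untreated libraries, a difference smaller than the SD, with KO untreated replicate 3 at 609 CPM. In WT they summed to 360 ± 66.5 CPM in copper and 721 ± 10.8 CPM untreated, without overlap.

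**Figure D1:**
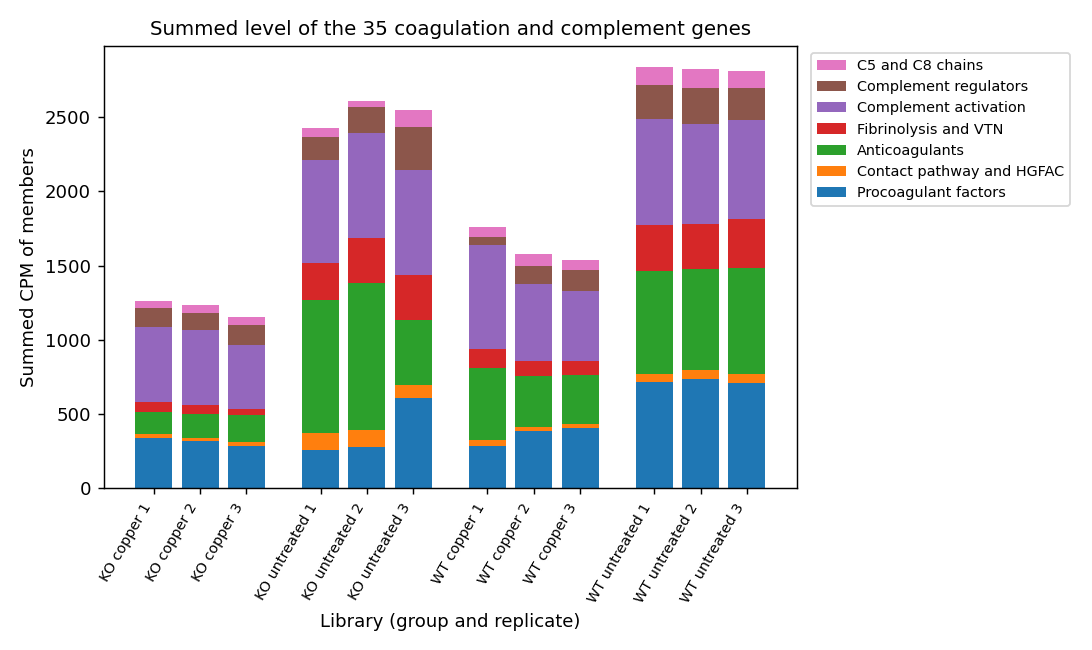
Summed CPM of the 35 members in each of the 12 libraries, stacked by role. The KO copper bars are the lowest, the WT copper bars lie between, and the untreated bars of both lines are the highest, with a larger anticoagulant share in KO untreated replicates 1 and 2.

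With copper in KO cells, 14 of the 27 tested members fell and 1, C1S, rose, while 18.5% of all 11051 tested genes fell and 15.2% rose. The median log2 fold change of the members was -1.10, beside 0.0061 for all tested genes. A gene is said to have risen or fallen where its adjusted p from edgeR's quasi-likelihood test was under 0.05. The members that fell were F5, F7, F10, F11, F12, PROC, SERPIND1, SERPINF2, KNG1, CPB2, VTN, C4BPA, C8A and MASP2. Of the hepatocyte markers, 6 of 10 fell in this comparison and 0 rose. No counts are given for the fit without the libraries that stood apart, which keeps KO untreated replicate 3 alone.

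With copper in WT cells, 7 members fell and 1, again C1S, rose, while 6.68% of all tested genes fell and 8.23% rose. The members that fell were F5, F10, F11, SERPIND1, SERPINF2, CPB2 and CFI, and the members' median was -0.71, beside -0.026 for all tested genes. Of the hepatocyte markers, 7 of 10 fell and 0 rose, and 9 fell without the libraries that stood apart. That fit gave 16 of 29 members that fell and 1 that rose, while 19.6% of genes fell and 20.4% rose. Without KO untreated replicate 3 alone, 13 of 29 members were called in place of 8, with 33.1% of all genes called in either direction.

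In untreated cells, KO against WT gave 6 members higher and 6 lower, with 17.9% of all tested genes higher and 14.0% lower. F5, F12, KNG1, C1R, C1S and C4BPA were higher in KO, and F2, F10, PROS1, SERPIND1, C5 and MASP1 were lower. The members' median was -0.18, beside -0.016 for all tested genes. Of the hepatocyte markers, 6 of 10 were lower in KO and 0 higher. Again no counts are given for the fit without the libraries that stood apart, which keeps KO untreated replicate 3 alone. The number of members called was 6 without any single WT untreated library, where 17.9%, 18.3% and 19.5% of all genes were called without replicates 1, 2 and 3. It was 7 without KO untreated replicate 1, with 20.1% of genes called, and 19 without KO untreated replicate 3, with 59.0% of genes called.

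In copper, KO against WT gave 1 member higher, C1S, and 6 lower, F7, F10, SERPIND1, SERPINF2, C8A and MASP1, with 5.77% of all tested genes higher and 8.03% lower. The members' median was -0.44, beside 0.047 for all tested genes. Of the hepatocyte markers, 4 of 10 were lower and 0 higher, and 6 were lower without the libraries that stood apart. That fit gave 2 members higher and 14 lower, while 17.3% of genes were higher and 20.6% lower. Leaving out KO untreated replicate 3 alone gave 13 members called in place of 7, with 31.2% of all genes called.

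The difference between the copper effects of the lines (KO minus WT) was called for 1 member, F7, which was lower, while 3.67% of all tested genes were lower and 1.26% higher. In the fit of the other 9 libraries, 4 members were called, C1S, F7, SERPIND1 and SERPINF2, each lower, while 8.78% of genes were called in either direction. When KO untreated replicate 3 alone was left out, 13 members were called, 8 lower and 5 higher, with 51.5% of all genes called.

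**Figure D2:**
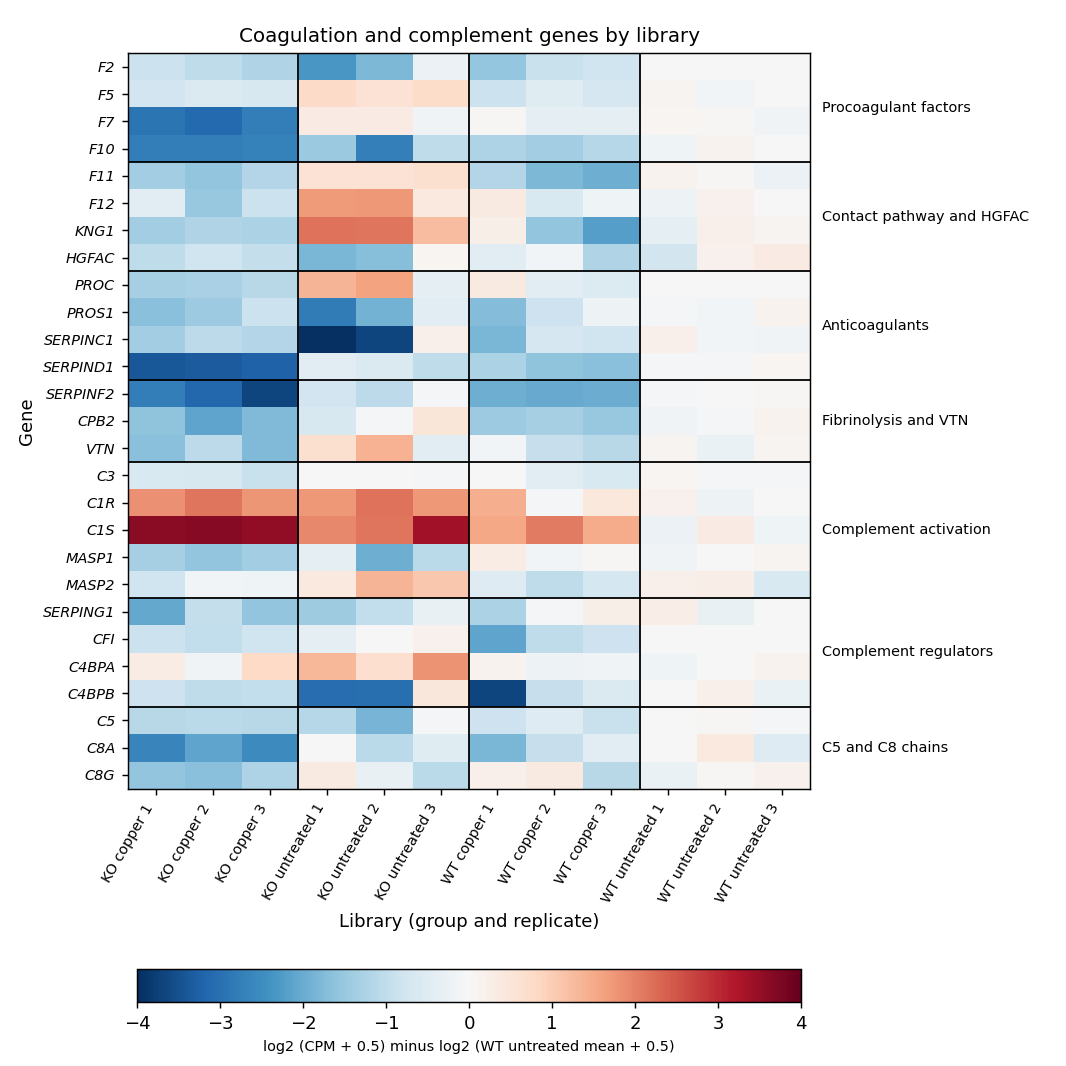
Level of the 27 tested members in each library as log2 (CPM + 0.5) minus log2 of the WT untreated mean + 0.5, with genes down the page by role and libraries by group. C1S stands out as high in KO copper and KO untreated libraries, F7, SERPIND1 and SERPINF2 as low in KO copper, and SERPINC1 and C4BPB as low in the libraries that stood apart.

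Among the procoagulant factors, F7 encodes factor VII, which starts coagulation together with tissue factor. It was at 3.92, 3.35 and 4.38 CPM in KO copper, 41.6, 41.0 and 29.6 in KO untreated, 33.6, 24.8 and 24.8 in WT copper and 34.8, 34.0 and 29.5 in WT untreated replicates 1 to 3. All 3 KO copper libraries lay below every other library, and the other groups overlapped. F7 fell 8.70-fold with copper in KO cells (log2 fold change -3.12 ± 0.28 SE, adjusted p = 1.7e-05), against -0.22 ± 0.23 in WT cells (adjusted p = 0.56). Errors of log2 fold changes are SE throughout. The copper effects differed between the lines by -2.91 ± 0.36 (KO minus WT, adjusted p = 0.0037), and this difference ran from -3.18 to -2.40 over the alternatives, each time past the threshold. KO cells were at 0.054 ± 0.23 relative to WT untreated (adjusted p = 0.87) and at -2.85 ± 0.28 in copper (adjusted p = 1e-04).

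F10 encodes factor X, the protease that activates prothrombin. It was at 15.0, 15.1 and 15.9 CPM in KO copper, 37.4, 15.4 and 52.2 in KO untreated, 44.3, 39.7 and 47.3 in WT copper and 94.1, 117 and 105 in WT untreated libraries. WT untreated libraries were highest, and KO untreated replicate 2 lay within the KO copper range. F10 fell with copper in both lines, at -1.10 ± 0.31 in KO (adjusted p = 0.018) and -1.24 ± 0.29 in WT (adjusted p = 0.015), and was lower in KO both untreated (-1.68 ± 0.30, adjusted p = 0.0023) and in copper (-1.55 ± 0.31, adjusted p = 0.0069). The copper call in KO ended without any single KO copper library (adjusted p 0.061 to 0.064) and in a fit of the 2 KO groups alone (0.096). The copper call in WT ended without WT untreated replicate 2 or 3 or WT copper replicate 2 (0.057 to 0.072). F7, next to it on the same strand, was called with copper in KO cells and not in WT cells.

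F5 encodes factor V, the cofactor of factor X. It was at 25.3, 28.9 and 27.5 CPM in KO copper, 73.4, 64.5 and 71.7 in KO untreated, 23.5, 30.5 and 27.1 in WT copper and 46.1, 39.7 and 43.5 in WT untreated libraries. The copper groups overlapped each other and lay below both untreated groups, of which KO was the higher. F5 fell with copper, at -1.25 ± 0.18 in KO (adjusted p = 0.00043) and -0.65 ± 0.18 in WT (adjusted p = 0.029), and was higher in KO untreated (0.57 ± 0.17, adjusted p = 0.026). The WT copper call ended without any single WT library or KO copper replicate 3 (0.051 to 0.12), with the replicate number as a block (0.053) and with no filter on low counts (0.21). The KO untreated call ended without any single WT untreated library or KO untreated replicate 1 (0.069 to 0.12), in a fit of the 2 untreated groups alone (0.096) and with no filter (0.25).

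F2 encodes prothrombin and was the most abundant procoagulant member. It was at 295, 269 and 235 CPM in KO copper, 107, 156 and 454 in KO untreated, 183, 292 and 309 in WT copper and 544, 542 and 534 in WT untreated libraries. WT untreated libraries were highest, and the libraries that stood apart were the lowest of all 12. F2 was lower in KO untreated (-1.32 ± 0.40, adjusted p = 0.027), a call that ended without any single WT untreated library or KO untreated replicate 1 or 2 (0.059 to 0.095) and in a fit of the 2 untreated groups alone (0.10). With copper it was at 0.30 ± 0.40 in KO (adjusted p = 0.58) and -1.02 ± 0.40 in WT (adjusted p = 0.11). In the fit without the libraries that stood apart, replicate 3 is the only KO untreated library. There the copper effect was -0.59 in KO and -0.78 in WT, and the KO effect in untreated cells was -0.45. F9 had 0 counts in all 12 libraries, where 3 counts equal 0.783 to 3.07 CPM, and F13B had 5 counts in all.

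The contact pathway starts coagulation on charged surfaces. F11 encodes factor XI, the protease that activates factor IX. It was at 10.7, 9.21 and 12.3 CPM in KO copper, 43.0, 43.0 and 45.2 in KO untreated, 12.3, 7.84 and 6.97 in WT copper and 31.4, 29.8 and 24.4 in WT untreated libraries. In each line the copper libraries lay below all untreated ones, with no overlap. F11 fell with copper, at -1.90 ± 0.25 in KO (adjusted p = 0.00025) and -1.65 ± 0.25 in WT (adjusted p = 0.0014), and the difference of these effects was -0.26 ± 0.35 (adjusted p = 0.62).

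F12 encodes factor XII, which starts the contact pathway. It was at 9.26, 4.19 and 6.77 CPM in KO copper, 43.0, 44.0 and 16.8 in KO untreated, 16.5, 8.28 and 11.2 in WT copper and 11.1, 14.4 and 12.9 in WT untreated libraries. KO untreated replicates 1 and 2 were more than 2-fold above replicate 3 and all other libraries. F12 fell with copper in KO (-2.19 ± 0.45, adjusted p = 0.0032) and was higher in KO untreated (1.28 ± 0.41, adjusted p = 0.033). These effects were -1.11 and 0.19 without the libraries that stood apart, with replicate 3 as the only KO untreated library. The KO untreated call ended without any single WT untreated library or KO untreated replicate 1 or 2, or in a fit of the 2 untreated groups alone (0.073 to 0.13). GRK6, a kinase gene on the opposite strand with overlapping exons, fell with copper in KO as well (-2.05 ± 0.39, adjusted p = 0.0024). No label states whether the counting used strand, so reads of F12 and GRK6 cannot be told apart.

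KNG1 encodes kininogen, the cofactor of the contact proteases and the source of bradykinin. It was at 1.07, 1.26 and 1.19 CPM in KO copper, 18.0, 17.4 and 9.15 in KO untreated, 4.27, 0.871 and 0.387 in WT copper and 2.64, 4.18 and 3.93 in WT untreated libraries, from 133 counts in all. The KO untreated libraries lay above all others. KNG1 fell with copper in KO (-3.46 ± 0.63, adjusted p = 0.0017) and was higher in KO untreated (1.87 ± 0.52, adjusted p = 0.018). The KO untreated call ended without any single WT untreated library or KO untreated replicate 1 (0.051 to 0.077). Without the libraries that stood apart, with replicate 3 as the only KO untreated library, the KO effect untreated was 1.14. In WT the copper effect was -1.03 ± 0.65 (adjusted p = 0.31), and -2.45 (adjusted p = 0.038) without WT copper replicate 1. HGFAC, the protease that activates hepatocyte growth factor, ranged from 2.77 to 14.3 CPM and was called in no comparison of all 12 libraries. Without KO untreated replicate 3 HGFAC was lower in KO untreated (-1.98, adjusted p = 0.0066). KLKB1, plasma prekallikrein, was left out by the filter on low counts with all libraries. It was at 0, 0.837 and 0.398 CPM in KO copper, 9.01, 10.2 and 2.14 in KO untreated, 0 in all WT copper and 0.264, 0.783 and 0.281 in WT untreated libraries. Some alternative fits kept it and called it higher in KO untreated and lower with copper in KO.

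Among the anticoagulants, SERPIND1 encodes heparin cofactor II, a serpin that inhibits thrombin. It was at 37.8, 38.9 and 41.8 CPM in KO copper, 288, 268 and 198 in KO untreated, 166, 131 and 124 in WT copper and 386, 389 and 419 in WT untreated libraries. The 4 groups did not overlap. SERPIND1 fell 5.90-fold with copper in KO (-2.56 ± 0.22, adjusted p = 1.3e-05) and 2.78-fold in WT (-1.47 ± 0.21, adjusted p = 0.00084). It was lower in KO untreated (-0.78 ± 0.20, adjusted p = 0.014) and in copper (-1.87 ± 0.21, adjusted p = 0.00027), of which the untreated call ended without WT untreated replicate 3 (adjusted p = 0.059) and in a fit of the 2 untreated groups alone (0.10). The copper effects differed by -1.09 ± 0.29 with an adjusted p of 0.052. Without the libraries that stood apart, with replicate 3 as the only KO untreated library, they differed by -0.57.

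**Figure D3:**
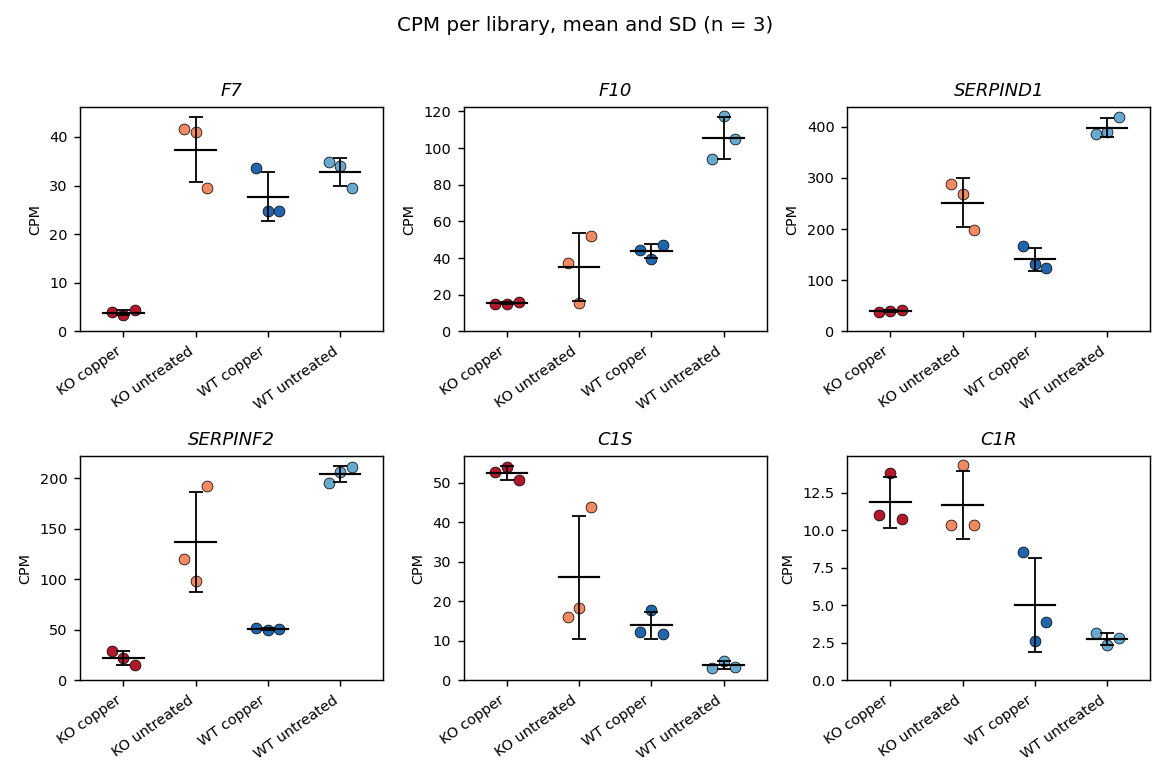
CPM of 6 members in each library (points), with the group mean (long bar) and SD (n = 3), for KO copper, KO untreated, WT copper and WT untreated from left to right. F7 is low in KO copper alone, SERPIND1 takes a separate level in each group, and C1S is highest in KO copper and lowest in WT untreated libraries.

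PROC encodes protein C, which once activated cuts factors V and VIII, and was the most abundant anticoagulant member. It was at 91.9, 95.5 and 108 CPM in KO copper, 599, 709 and 178 in KO untreated, 299, 174 and 161 in WT copper and 237, 233 and 231 in WT untreated libraries. The libraries that stood apart were the highest of all 12. PROC fell with copper in KO (-2.24 ± 0.44, adjusted p = 0.0025). In untreated cells the KO effect was 0.98 ± 0.42 (adjusted p = 0.089). These effects were -0.68 and -0.59 without the libraries that stood apart, with replicate 3, at 178 CPM, as the only KO untreated library. In copper the KO effect was -1.14 ± 0.42 (adjusted p = 0.092), and without these libraries -0.85 (adjusted p = 4.1e-08). The copper effect in WT was -0.11 ± 0.42 (adjusted p = 0.89), and without these libraries -0.42 (adjusted p = 0.00098). PROS1, the cofactor of protein C, ranged from 4.16 to 34.8 CPM and was lower in KO untreated (-1.43 ± 0.47, adjusted p = 0.037). That call ended without any single WT untreated library, WT copper replicate 2, KO untreated replicate 1 or 2, or KO copper replicate 1 or 2, and in a fit of the 2 untreated groups alone (0.050 to 0.10).

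SERPINC1 encodes antithrombin, the main plasma inhibitor of thrombin and factor X. It was at 11.8, 15.1 and 13.9 CPM in KO copper, 1.39, 2.05 and 36.6 in KO untreated, 8.54, 19.6 and 18.2 in WT copper and 36.6, 29.5 and 28.9 in WT untreated libraries. KO untreated replicate 3 was at the WT untreated level, and replicates 1 and 2 were the lowest of all 12. The copper effect in KO was -0.055 ± 0.70 (adjusted p = 0.96). It was 3.02 (adjusted p = 0.00035) without KO untreated replicate 3. Without the libraries that stood apart, with replicate 3 as the only KO untreated library, it was -1.26. PROZ, protein Z, was left out by the filter on low counts with all libraries. It had at most 1.39 CPM outside WT untreated libraries, where it was at 5.27, 4.18 and 3.09 CPM. Some alternative fits kept it and called it lower in KO untreated and with copper in WT.

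Among the fibrinolysis genes, SERPINF2 encodes antiplasmin, the serpin that inhibits plasmin. It was at 29.6, 22.6 and 15.5 CPM in KO copper, 120, 98.3 and 192 in KO untreated, 51.8, 50.1 and 51.1 in WT copper and 195, 206 and 211 in WT untreated libraries. The KO copper libraries were lowest, the WT copper libraries came next, and the groups did not overlap. SERPINF2 fell with copper 5.53-fold in KO (-2.47 ± 0.27, adjusted p = 8.8e-05) and 3.92-fold in WT (-1.97 ± 0.26, adjusted p = 0.00064). In copper it was lower in KO (-1.20 ± 0.27, adjusted p = 0.012), a call that ended without KO copper replicate 2 or 3 (0.055 and 0.063). In untreated cells the KO effect was -0.70 ± 0.25 (adjusted p = 0.052).

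CPB2 encodes a carboxypeptidase that removes plasminogen binding sites from fibrin. It was at 15.0, 10.5 and 13.1 CPM in KO copper, 29.8, 45.1 and 65.6 in KO untreated, 16.5, 18.3 and 15.9 in WT copper and 42.4, 45.2 and 51.4 in WT untreated libraries. Copper libraries lay below all untreated libraries in both lines, and the untreated groups overlapped. CPB2 fell with copper, at -1.74 ± 0.27 in KO (adjusted p = 0.00066) and -1.43 ± 0.26 in WT (adjusted p = 0.0040). VTN, vitronectin, is an adhesive plasma protein that restrains the complement pore. It fell with copper in KO, where it averaged 22.3 ± 6.5 CPM in copper and 102 ± 59 CPM untreated (-2.07 ± 0.45, adjusted p = 0.0045). Its KO effect in untreated cells was 0.60 ± 0.42 (adjusted p = 0.29). These effects were -0.84 and -0.66 without the libraries that stood apart, with replicate 3 as the only KO untreated library. PLG, plasminogen, had 4 counts in all 12 libraries.

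**Figure D4:**
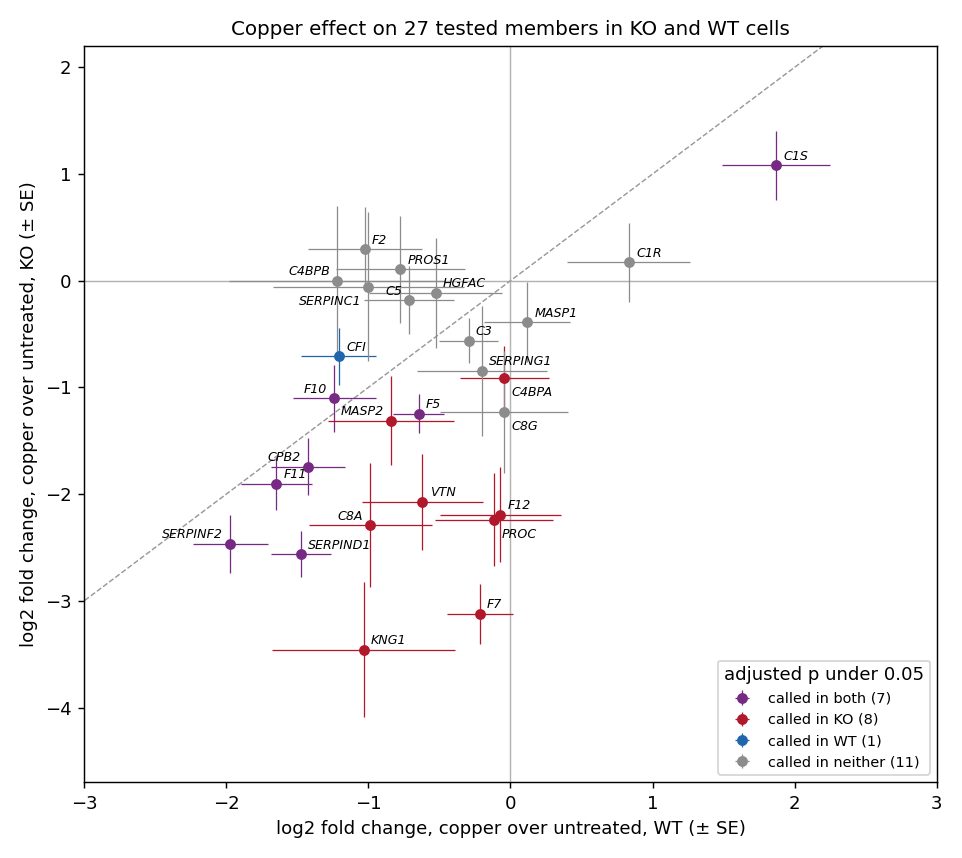
Copper effect (log2 fold change, copper over untreated, ± SE) on each of the 27 tested members in WT cells (x axis) and in KO cells (y axis), coloured by call, with the dashed line marking equal effects. Of the members, 7 were called in both lines, 8 in KO and 1 in WT, C1S is the 1 member called as higher in each line, and F7 lies near 0 on the x axis and at -3.12 on the y axis.

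Among the complement activation genes, C1S encodes the protease of the C1 complex that cuts C4 and C2. It was at 52.7, 54.0 and 50.6 CPM in KO copper, 15.9, 18.4 and 43.9 in KO untreated, 12.3, 17.9 and 11.6 in WT copper and 3.16, 4.96 and 3.37 in WT untreated libraries. KO copper libraries were highest and WT untreated libraries lowest, with overlap between KO untreated and WT copper. C1S rose with copper by 1.08 ± 0.32 in KO (adjusted p = 0.023) and 1.87 ± 0.38 in WT (adjusted p = 0.0072). It was higher in KO untreated (2.67 ± 0.37, adjusted p = 0.00059) and in copper (1.88 ± 0.34, adjusted p = 0.0037). The copper call in KO ended without KO untreated replicate 1 or 2 or KO copper replicate 1 or 2 (0.064 to 0.076). It also ended in a fit of the 2 KO groups alone (0.086). The difference between the copper effects was -0.79 ± 0.49 (adjusted p = 0.27). In the fit without the libraries that stood apart, replicate 3 is the only KO untreated library. There the copper effect in KO was 0.43 and the difference -1.54. EMG1, a ribosome assembly gene that shares exon positions and strand with C1S, was called in none of the 4 pairwise comparisons (adjusted p 0.21 to 0.83). EMG1 had 8765 counts in all and C1S 726, and reads at the shared positions cannot be told apart.

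C1R encodes the protease that activates C1s within C1. It averaged 11.9 ± 1.7 CPM in KO copper, 11.7 ± 2.3 in KO untreated, 5.01 ± 3.1 in WT copper and 2.77 ± 0.41 in WT untreated libraries (SD, n = 3 each). C1R was higher in KO untreated (1.90 ± 0.41, adjusted p = 0.0056), whereas in copper the KO effect was 1.24 ± 0.39 (adjusted p = 0.055). Without the libraries that stood apart the KO effect in copper was 1.76 (adjusted p = 0.00025). C1R and C1S were both higher in KO than in WT untreated cells. Some C1R exon positions are shared with C1RL on the same strand, which was called in none of the 4 comparisons of all libraries. Without the libraries that stood apart, with replicate 3 as the only KO untreated library, the copper effect on C1RL in KO was -1.21.

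C3, the component on which all complement pathways converge, was the most abundant of the 35 members. It was at 431, 425 and 356 CPM in KO copper, 652, 657 and 634 in KO untreated, 665, 480 and 435 in WT copper and 691, 644 and 642 in WT untreated libraries. The KO copper libraries were lowest, and WT copper replicate 1 lay among the untreated libraries. The copper effect was -0.56 ± 0.21 in KO (adjusted p = 0.056) and -0.29 ± 0.21 in WT (adjusted p = 0.37). Both effects were -0.47 without the libraries that stood apart, with replicate 3 as the only KO untreated library.

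MASP1 encodes a protease of the lectin pathway. It was at 4.99, 4.19 and 4.78 CPM in KO copper, 10.4, 3.07 and 6.10 in KO untreated, 16.5, 12.2 and 13.9 in WT copper and 12.1, 13.3 and 14.6 in WT untreated libraries. All KO libraries lay below all WT libraries. MASP1 was lower in KO in copper (-1.63 ± 0.34, adjusted p = 0.0081) and untreated (-1.13 ± 0.34, adjusted p = 0.024), of which the untreated call ended without any single WT untreated library or KO untreated replicate 2 or 3 (0.052 to 0.083) and in a fit of the 2 untreated groups alone (0.12). MASP2, the lectin pathway protease that cuts C4 and C2, fell with copper in KO (-1.31 ± 0.42, adjusted p = 0.030), at 3.16 ± 0.89 CPM in KO copper and 8.65 ± 2.9 CPM in KO untreated libraries. That call ended without KO untreated replicate 2 or any KO copper library (0.057 to 0.12), with no filter on low counts (0.055) and in a fit of the 2 KO groups alone (0.074). MBL2, a lectin that starts the pathway, had 73 counts in all. CFB, the factor B gene of the alternative pathway, had 0, and its exons overlap those of C2 on the same strand, which had 14 counts, so both counts are uncertain.

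Among the complement regulators, CFI encodes factor I, which cuts C3b and C4b, and was the most abundant. It was at 82.6, 76.6 and 86.8 CPM in KO copper, 118, 149 and 169 in KO untreated, 34.7, 74.1 and 84.4 in WT copper and 152, 154 and 148 in WT untreated libraries. Copper libraries lay below untreated libraries in both lines, and WT copper replicate 1 was the lowest. CFI fell with copper in WT (-1.21 ± 0.27, adjusted p = 0.010), and the effect in KO was -0.71 ± 0.26 (adjusted p = 0.056). Both effects were -0.87 without the libraries that stood apart, with replicate 3 as the only KO untreated library.

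C4BPA encodes the alpha chain of the C4b binding protein, a cofactor of factor I. It was at 13.2, 9.63 and 18.7 CPM in KO copper, 27.7, 17.4 and 38.1 in KO untreated, 11.7, 9.15 and 9.68 in WT copper and 9.49, 10.7 and 11.8 in WT untreated libraries. The KO untreated libraries lay above all WT libraries and overlapped KO copper. C4BPA was higher in KO untreated (1.28 ± 0.30, adjusted p = 0.0082) and fell with copper in KO (-0.91 ± 0.30, adjusted p = 0.034). The copper call ended without WT untreated replicate 1 or 2, KO untreated replicate 1 or 3, or KO copper replicate 1 or 2 (0.053 to 0.14) and in a fit of the 2 KO groups alone (0.12).

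C4BPB encodes the beta chain, which carries protein S. It was at 33.8, 29.7 and 30.3 CPM in KO copper, 6.93, 7.17 and 83 in KO untreated, 4.27, 31.8 and 40.3 in WT copper and 61.9, 70.5 and 50.3 in WT untreated libraries. The libraries that stood apart were the lowest of all 12, and KO untreated replicate 3 was the highest. The copper effect in KO was -0.0017 ± 0.70 (adjusted p = 0.999), and 2.17 (adjusted p = 0.012) without KO untreated replicate 3. Without the libraries that stood apart, with replicate 3 as the only KO untreated library, it was -1.23. SERPING1, the C1 inhibitor, ranged from 0.712 to 5.54 CPM and was called in no comparison of all 12 libraries. Without the libraries that stood apart SERPING1 was lower in KO in copper (-1.97, adjusted p = 0.0052).

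**Figure D5:**
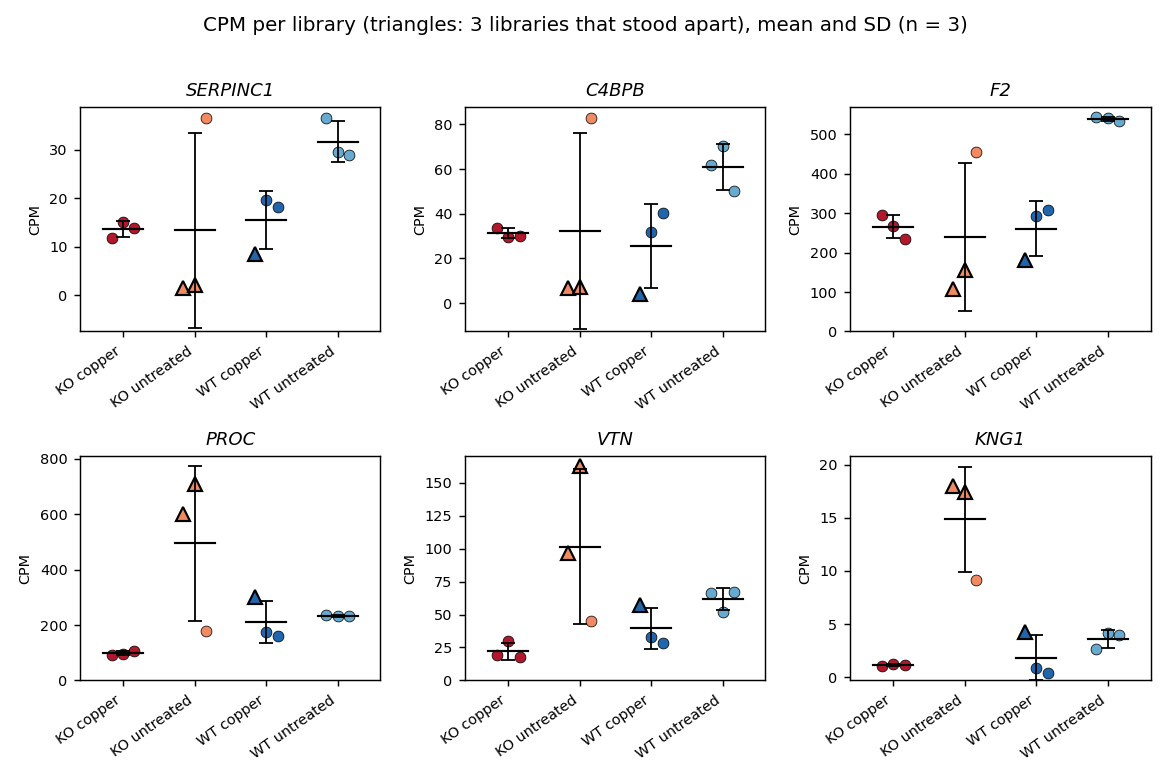
CPM of 6 members in each library, with the libraries that stood apart as triangles and the group mean and SD (n = 3) as bars. SERPINC1, C4BPB and F2 are low in the triangles and PROC, VTN and KNG1 are high in them, relative to the other libraries of the same group.

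In KO untreated cells, replicates 1 and 2 together lay more than 2-fold below replicate 3 for 7 of the 27 tested members (25.9%) and for 26.5% of all tested genes, on log2 (CPM + 0.5). They lay more than 2-fold above it for 4 members (14.8%) and 14.6% of all tested genes. In WT copper cells, replicate 1 lay more than 2-fold below the other 2 for 6 members (22.2%) and 14.8% of all tested genes, and above them for 2 members (7.41%) and 4.23% of all tested genes. The sign of both differences was the same for 20 of the 27 members (74.1%) and for 72.9% of all tested genes. The shares of the members in KO untreated cells were thus near those of all tested genes.

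Of the terminal complement components, C5 gives the anaphylatoxin C5a and the base of the pore. It was at 48.4, 49.4 and 49.4 CPM in KO copper, 47.8, 28.7 and 103 in KO untreated, 59.8, 74.5 and 56.5 in WT copper and 106, 109 and 103 in WT untreated libraries. KO untreated replicate 3 lay at the WT untreated level and replicates 1 and 2 below it. C5 was lower in KO untreated (-0.94 ± 0.32, adjusted p = 0.041). That call ended in a fit of the 2 untreated groups alone (0.15). It also ended without any single library other than WT copper replicate 1 and KO untreated replicate 3 (0.050 to 0.13). The copper effect was -0.18 ± 0.32 in KO (adjusted p = 0.68) and -0.71 ± 0.32 in WT (adjusted p = 0.15). Without the libraries that stood apart C5 fell with copper in KO (-0.89, adjusted p = 1.3e-05) and in WT (-0.64, adjusted p = 0.00010).

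C8A encodes the alpha chain of C8, which enters the membrane. It was at 0.712, 1.26 and 0.796 CPM in KO copper, 6.93, 3.07 and 4.88 in KO untreated, 1.60, 3.49 and 5.03 in WT copper and 6.85, 9.40 and 4.77 in WT untreated libraries, from 139 counts in all. The KO copper libraries lay below every other library. C8A fell with copper in KO (-2.29 ± 0.58, adjusted p = 0.010) and was lower in KO in copper (-1.91 ± 0.58, adjusted p = 0.049). The KO call in copper ended without any single WT untreated or KO copper library or WT copper replicate 2 or 3 (0.054 to 0.16), with the replicate number as a block (0.077) and with no filter on low counts (0.051). C8G, the gamma chain, ranged from 1.67 to 8.31 CPM and was called in no comparison of all 12 libraries. Without the libraries that stood apart the KO effect on C8G was -1.53 in copper. It was -1.40 untreated, with replicate 3 as the only KO untreated library. C8B, the beta chain, had 37 counts in all and was left out by the filter on low counts. With no filter it was called lower with copper in KO.

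Of 20 other genes of coagulation and fibrinolysis, 10 were tested. With copper in KO cells 5 rose and 0 fell, among them PLAUR, the urokinase receptor, and ANXA5, which binds phosphatidylserine. The plasmin inhibitor SERPINF2, a member, fell in the same comparison. With copper in WT cells SERPINA5, the protein C inhibitor, and A2M, a general protease inhibitor, fell and 0 rose. In untreated cells 4 were lower in KO and 0 higher. TFPI, the inhibitor of the factor VII and tissue factor complex, was at 295 ± 105 CPM in KO and 1131 ± 57 CPM in WT (-2.07 ± 0.27, adjusted p = 0.00047). In copper 3 were lower in KO, among them TFPI and A2M, and 0 higher. Without the libraries that stood apart, with replicate 3 as the only KO untreated library, the 5 that rose in KO stayed above 0. The copper effects in KO on SERPINA5, SERPINA10 and A2M were -2.10, -2.43 and -1.04. In WT that fit gave copper effects from -1.58 for SERPINA5 to 1.44 for PLAUR. The KO effect on TFPI was -1.66 untreated and -1.51 in copper. Of all tested genes, 15.2% rose and 18.5% fell with copper in KO, and 8.23% rose and 6.68% fell in WT. In KO against WT 17.9% of them were higher and 14.0% lower untreated, and 5.77% higher and 8.03% lower in copper. Without the libraries that stood apart, 19.1% rose and 20.5% fell in KO, and 20.4% rose and 19.6% fell in WT. In KO against WT that fit gave 16.8% higher and 17.7% lower untreated, and 17.3% higher and 20.6% lower in copper.

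Of 31 other complement genes, 8 were tested and 13, among them the C1q chains, had 0 counts. With copper in KO cells CLU, CD55 and CD59 rose, and CD46 and CPN2 fell. CLU, clusterin, was at 1121 ± 17 CPM in KO copper and 481 ± 164 CPM in KO untreated libraries (1.35 ± 0.22, adjusted p = 0.0010). With copper in WT cells edgeR called 0 of the 8. CLU and CD55 were lower in KO untreated, and CD59 was higher in KO in copper. Without the libraries that stood apart, the copper effects in WT ran from -1.70 for CPN1 to 0.74 for CD55. In KO, with replicate 3 as the only KO untreated library, they ran from -1.95 for CPN2 to 1.11 for CD55. The shares of all tested genes beside the counts with all libraries are those given with the other coagulation genes. The copper effect on CLU differed between the lines by 1.27 ± 0.31 (KO minus WT, adjusted p = 0.044), and by 0.90 without the libraries that stood apart.

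The factors F2, F7, F9, F10, PROC, PROS1 and PROZ need vitamin K dependent carboxylation, and several members are carried out of the endoplasmic reticulum by a shared export machinery. All 13 listed genes of both steps were tested. VKORC1, which recycles vitamin K, was lower in KO untreated (-1.44 ± 0.19, adjusted p = 0.00048) and in copper (-1.74 ± 0.19, adjusted p = 0.00021). GGCX, the carboxylase, was higher in KO untreated (0.61 ± 0.20, adjusted p = 0.035) and in copper (0.77 ± 0.20, adjusted p = 0.025). LMAN1, the export receptor of factors V and VIII, was lower in KO untreated (-1.98 ± 0.29, adjusted p = 0.00081) and fell with copper in WT cells (-0.94 ± 0.28, adjusted p = 0.042). In all, 2 rose and 0 fell with copper in KO, 0 rose and 2 fell with copper in WT, and in KO against WT 2 were higher and 5 lower untreated and 1 was higher and 1 lower in copper. Without the libraries that stood apart, the copper effects in WT ran from -0.80 for SEC23A to 0.92 for PCSK7. In KO, with replicate 3 as the only KO untreated library, they ran from -0.51 for VKORC1 to 0.73 for PCSK7. In that fit the KO effects untreated and in copper were -1.29 and -1.68 for VKORC1 and 0.54 and 0.59 for GGCX. The shares of all tested genes are again those given with the other coagulation genes. With all libraries, 17.9% of all tested genes were higher and 14.0% lower in KO untreated.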

How the data were processed

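Total RNA of 12 HepG2 cultures entered a 3′ mRNA sequencing kit (QuantSeq), per the labels' protocols, which reads transcripts near their polyadenylated end and without molecular identifiers. The floor of 3 counts therefore covers counting error only. The submitters' processing notes name STAR 2.3.0, HTSeq and hg19, and no source used here states the strand setting. The authors deposited raw, unnormalized read counts for each gene and library.

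Members were matched by symbol to the Ensembl IDs with the gene name tables and GENCODE v29, used for names and for shared exon positions. CPM is the count over the library total. Tests on these counts used edgeR 4.0.16 (R 4.3.3): filterByExpr kept 11051 genes, libraries were scaled by TMM, and a robust quasi-likelihood fit of 4 group means over all 12 libraries gave 5 comparisons. Benjamini-Hochberg adjustment ran over all 11051 genes, with calls at 0.05. P-values measure the spread between libraries labelled as biological replicates, with 1 estimate shared by all groups. Without the 3 libraries that stood apart, KO untreated holds replicate 3 alone, and its own spread is not measured. SE is the log2 fold change over the square root of F. The steps were tested on simulated data with 200 changed genes. The simulation gave all genes the same spread and held no libraries that stood apart, so it does not check results that turn on such libraries. Alternatives were edgeR's relative log expression factors in place of TMM, the Wald test of DESeq2 1.42.0, no filter and a fit of the 2 groups alone. Others were a replicate block, leaving out each library, and leaving out the 3 libraries that stood apart, which was chosen after seeing the data.

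The members and lists were chosen with earlier results of these data known. Full values per library are given for members called in at least 2 of the 4 pairwise comparisons and for the most abundant member of each role. Genes of the other lists are named where called, at most the 6 of smallest adjusted p per list and comparison, and SERPINC1, C4BPB and KLKB1 were given in full after their values were seen. Some genes of these lists are not reported here.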

Additional observations from a re-analysis of the deposited data

Results flagged for a closer look

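F7 is given here because its copper effect differed between the lines by a test of the difference itself. The log2 copper effect in KO cells minus that in WT cells was -2.91 ± 0.36 (SE, edgeR adjusted p = 0.0037), with -3.12 in KO cells and -0.22 in WT cells. All 3 KO copper libraries lay below all other libraries.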

How the results depend on the processing

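The fits gave 43 called values for the members, and 27 held under each of their alternatives (up to 18). Of 771 alternatives of called values, 100 lost the call and 0 reversed it. Of 1622 alternatives of uncalled values, 96 became called with the same sign, 72 changed sign without a call, and 6 were called with the opposite sign. Of those 6, the copper effects in KO of SERPINC1 (3.02) and C4BPB (2.17) came without KO untreated replicate 3. Their values without other single libraries were as low as -0.56 and -0.46 (both without KO untreated replicate 1). The others came without the 3 libraries that stood apart. They were F2 with copper in KO (-0.59) and in KO against WT in copper (-0.26), and PROC (-0.59) and VTN (-0.66) in KO against WT untreated. Except for F2 in copper (-0.26), these rest on replicate 3 as the only KO untreated library. Leaving out single libraries, the members called were 12 to 21 with copper in KO, 6 to 13 with copper in WT, 6 to 19 in KO against WT untreated, 5 to 13 in KO against WT in copper and 1 to 13 for the interaction. The shares of all tested genes called in those fits were 20.7% to 58.1%, 6.40% to 33.1%, 17.9% to 59.0%, 5.90% to 31.2% and 0.113% to 51.5%, in the same order. Without the 3 libraries that stood apart the members called were 17 with copper in WT, 16 in KO against WT in copper and 4 for the interaction. The fit of the 2 groups alone gave 6 in KO against WT untreated. For the interaction, the relative log expression factors gave 2, no filter 5 and DESeq2's Wald test 4. The shares of all tested genes called in the 2-group, DESeq2 and no-filter fits are not given here. Whether those counts moved with all genes or for the members alone therefore cannot be told. The cause was not tested.

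With the replicate number as a block, the members called were 16 with copper in KO, 7 with copper in WT, 12 in KO against WT untreated, 6 in KO against WT in copper and 1 for the interaction. The shares of all tested genes called with this block are not given here either, so these counts have no background beside them. Same-numbered libraries deviated from their group means with correlations of -0.20 to 0.59, and a library's best match in another group had its own number in 5 of 36 cases, so the numbers were not taken as pairs. Members under about 10 CPM rest on few counts, since 3 counts equal up to 3.07 CPM.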
